A study of Mus musculus with 2 samples.

Results

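Narrow GATA4 peaks are the shortest regions in a map of GATA4 binding made by chromatin immunoprecipitation and sequencing (ChIP-seq) in mouse skeletal muscle myoblasts. They were chosen by width alone, as every peak of 400 bp or less, and 858 of the 17539 peaks (4.89%) met that limit. They covered 304 kb, or 2.25% of the 13.5 Mb under all peaks. The map comes from 1 library precipitated with a mixture of 3 antibodies to GATA4, and 1 library precipitated with control IgG was sequenced beside it. Both came from satellite cell-derived myoblasts of the stock STOCK Myf5tm1Pas/J, which carries a targeted Myf5 allele, in growth medium with 20% serum and 20 ng/ml basic fibroblast growth factor. The labels give no age, number of animals or copy number of that allele. There was no replicate, so no comparison between libraries was tested, and all shares below carry exact (Clopper-Pearson) 95% intervals that cover counting error only. Gene expression was not analysed here, so the identity of the cells was not checked against marker genes.

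GATA4 is a zinc finger transcription factor that recognises DNA around the letters GATA, and it is best known as a regulator of heart, gut and gonad genes. Myoblasts are the proliferating precursors of muscle fibres, whose identity rests on MyoD, Myf5 and related factors. In ChIP-seq a peak is a stretch of genome with more reads than a background model allows. Its width depends on the length of the sheared DNA, on how many fragments cover the place, and on whether neighbouring sites are merged. Here the chromatin was sheared to between 200 and 500 bp and sequencing used products 250 to 300 bp long, with paired-end reads of 150 bp. Narrow peaks, with widths from 212 to 400 bp and a median of 361.5 bp, fell in the range of the sheared fragments.

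Where narrow peaks lay at gene starts, the sequence under them can be read from RefSeq promoter windows, which run from 250 bases before to 50 after a gene start on GRCm38.p6. The windows cover 17492 of 21887 protein coding genes. In all, 37 narrow peaks (4.31%) overlapped 42 windows of 40 genes, 33 of them protein coding. The 5 windows below are those found among the 12 highest-scoring narrow peaks at protein coding gene ends, and show the 250 bases before the start, 5′ to 3′. Capitals mark the bases under the peak.
Rbm34, chr8:126971050-126971299, - strand: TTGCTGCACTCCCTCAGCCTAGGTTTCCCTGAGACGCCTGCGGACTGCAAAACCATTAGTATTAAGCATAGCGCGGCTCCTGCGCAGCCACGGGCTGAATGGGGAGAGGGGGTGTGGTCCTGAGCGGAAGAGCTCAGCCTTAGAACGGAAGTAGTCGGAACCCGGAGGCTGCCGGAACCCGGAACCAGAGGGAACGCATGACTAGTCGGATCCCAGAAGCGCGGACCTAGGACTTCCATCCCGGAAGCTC
Ccdc88a, chr11:29373408-29373657, + strand: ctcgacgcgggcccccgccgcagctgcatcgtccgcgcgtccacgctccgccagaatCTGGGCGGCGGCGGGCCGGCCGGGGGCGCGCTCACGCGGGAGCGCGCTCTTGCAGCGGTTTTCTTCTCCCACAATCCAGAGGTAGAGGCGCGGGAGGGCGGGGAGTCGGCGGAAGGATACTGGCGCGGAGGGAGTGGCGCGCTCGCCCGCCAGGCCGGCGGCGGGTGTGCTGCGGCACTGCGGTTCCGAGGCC
Ddx27, chr2:167015063-167015312, + strand: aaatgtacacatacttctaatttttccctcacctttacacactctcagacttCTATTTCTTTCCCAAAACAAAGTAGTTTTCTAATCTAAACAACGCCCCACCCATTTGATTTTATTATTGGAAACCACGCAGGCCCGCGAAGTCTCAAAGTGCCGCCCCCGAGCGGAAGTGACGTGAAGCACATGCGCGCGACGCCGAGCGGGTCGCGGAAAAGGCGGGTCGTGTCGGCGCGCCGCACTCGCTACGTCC
Prl2c3, chr13:12800080-12800329, - strand: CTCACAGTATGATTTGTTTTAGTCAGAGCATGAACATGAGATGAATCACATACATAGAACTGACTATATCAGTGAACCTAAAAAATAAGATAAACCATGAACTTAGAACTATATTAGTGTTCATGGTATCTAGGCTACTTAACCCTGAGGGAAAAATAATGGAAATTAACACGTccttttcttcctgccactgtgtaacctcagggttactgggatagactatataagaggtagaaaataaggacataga
Opa1, chr16:29579084-29579333, + strand: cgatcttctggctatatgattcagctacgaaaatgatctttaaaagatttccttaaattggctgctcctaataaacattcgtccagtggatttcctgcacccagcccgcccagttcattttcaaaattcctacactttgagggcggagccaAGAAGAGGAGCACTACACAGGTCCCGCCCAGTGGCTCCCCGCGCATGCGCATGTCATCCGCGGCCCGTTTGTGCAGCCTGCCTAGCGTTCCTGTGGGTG

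The Rbm34 peak covered the whole window, while the Ccdc88a and Ddx27 peaks began inside it and ran past the start. Rbm34 encodes an RNA-binding protein, Ccdc88a the actin-binding protein girdin, and Ddx27 a nucleolar RNA helicase. Opa1 encodes a GTPase that fuses the inner mitochondrial membrane. Its peak covered 149 bases of the window, of which only the 99 next to the start lie before it, and ran on past the start. The Prl2c3 peak lay on the side of the window away from the start. Prl2c3 belongs to a family of closely related prolactin-like genes, and the sources used here do not say how reads were divided among the copies, so its peak is uncertain.

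The share of these windows with a GATA hexamer was close to that of other windows. The hexamer AGATAA was searched on both strands, as was AGATAG, and in the same way TGATAA was searched, as was TGATAG. At least 1 stood in 10 of the 42 windows, or 23.8% (95% interval 12.1% to 39.4%), against 29.8% of all 32851 windows. Windows under peaks of 401 to 600 bp held one in 25.6% of 293 cases, and windows under peaks over 600 bp in 23.4% of 1669 cases. The hexamer was under the narrow peak itself in 9 of the 10 windows, and Trip12 was the exception. The intervals are wide at this number, and a match is only a match of letters. They also treat the 42 windows as separate, although these lie under 37 peaks. Gm17039 and Zfp953 share 1 peak, and the hexamer at -72 in the first is the one at -26 in the second.

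The windows of 1810058I24Rik and Tomm70a are shown because, after Prl2c3, theirs are the highest-scoring narrow peaks of protein coding genes that cover a GATA hexamer in the 250 bases before the start. They were chosen after the matches were seen. Tomm70a encodes a receptor for protein import into mitochondria. Counted from the start base as 0, the first base of the hexamer is at -54 in Tomm70a, and 1810058I24Rik has 2, at -135 and -33. In Prl2c3 above it is at -163. The 1810058I24Rik peak was 369 bp wide with a score of 152.68 and covered the whole window, and the Tomm70a peak was 351 bp wide with a score of 124.17. Covered hexamers also lay at -44 in Olr1 and -26 in Zfp953, and past the start at 9 in Ap5s1 and 11 in Zfp426. Capitals again mark the bases under the peak.
1810058I24Rik, chr6:35256741-35256990, + strand: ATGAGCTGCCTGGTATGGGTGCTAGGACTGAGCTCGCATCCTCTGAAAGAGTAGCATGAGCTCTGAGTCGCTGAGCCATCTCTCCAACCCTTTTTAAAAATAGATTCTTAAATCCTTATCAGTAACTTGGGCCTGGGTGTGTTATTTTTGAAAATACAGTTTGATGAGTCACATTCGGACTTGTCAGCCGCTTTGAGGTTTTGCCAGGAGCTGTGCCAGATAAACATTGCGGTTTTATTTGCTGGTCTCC
Tomm70a, chr16:57121464-57121713, + strand: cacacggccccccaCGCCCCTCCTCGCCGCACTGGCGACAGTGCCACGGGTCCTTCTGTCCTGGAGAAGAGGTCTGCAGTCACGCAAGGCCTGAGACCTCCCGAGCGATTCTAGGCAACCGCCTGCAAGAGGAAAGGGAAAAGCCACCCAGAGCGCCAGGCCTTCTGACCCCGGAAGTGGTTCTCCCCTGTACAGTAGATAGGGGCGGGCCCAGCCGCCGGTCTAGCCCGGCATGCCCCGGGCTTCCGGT

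For 8 other motifs the counts below are over whole windows of 300 bases, and those for the bases under the peak follow. The GC box GGGCGG stood in 23 of the 42 windows (54.8%, 38.7% to 70.2%), against 35.7% of all windows and 58.2% of those under peaks over 600 bp. The ETS motif CCGGAAG stood in 13 windows (31.0%, 17.6% to 47.1%), against 8.86% of all windows and 22.4% of those under peaks over 600 bp. The cAMP response element TGACGTCA stood in 5 windows (11.9%, 3.98% to 25.6%), against 1.79% and 3.42%. The 5 windows lie under 3 peaks, since B230354K17Rik and Cdc5l share 1 peak and Gm17039 and Zfp953 another, and the fifth is that of Zfp426. The AP-1 motif TGANTCA stood in 6 windows (14.3%, 5.43% to 28.5%), against 7.81% and 7.19%. CCAAT stood in 10 windows (23.8%, 12.1% to 39.4%), below the 37.4% of all windows and the 40.0% under peaks over 600 bp. The E-box CAGCTG stood in 7 windows (16.7%, 6.97% to 31.4%), against 16.3% and 16.1%, and the NRF1 motif GCGCATGC in 3 (7.14%, 1.5% to 19.5%), against 2.71% and 4.25%. The TEAD motif GGAATG stood in 1 window (2.38%, 0.0603% to 12.6%), below the 14.7% of all windows and the 14.6% under peaks over 600 bp. Under the peak itself the counts were 23 for the GC box, 12 for ETS, 7 for CCAAT, 5 for CRE, 5 for AP-1, 2 for the E-box, 2 for NRF1 and 1 for TEAD. The E-box share there was 4.76% (0.582% to 16.2%), against 14.1% for peaks over 600 bp. For CCAAT it was 16.7% (6.97% to 31.4%) against 36.8%, and for TEAD 2.38% against 12.8%. The GC box share was 54.8% against 54.5%, and that of NRF1 4.76% against 4.19%. Shares were higher under narrow peaks for ETS (28.6% against 21.9%), CRE (11.9% against 3.12%) and AP-1 (11.9% against 6.77%). Narrow peaks covered a mean of 243 bases of a window, against 252 and 266 for the wider classes. All motifs were searched on both strands, and none of these differences was tested. Windows that share a peak or a gene were counted separately, and the 6 windows with AP-1 include both overlapping windows of Gm36199. The median GC content of the 42 windows was 57.5%, against 52.7% for all windows and 60.0% under peaks over 600 bp.

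Narrow peaks had high scores. The MACS score is the authors' own value for each peak, and it comes from the same peak call as the width, so it is given as a description. Among narrow peaks the median score was 152.68, with quartiles of 124.17 and 182.39 and a range from 50.14 to 656.59. For peaks over 400 bp the median was 97.04 and the quartiles were 76.19 and 136.43. In all, 840 of the 858 narrow peaks (97.9%) scored at or above 99.34, the median of the whole list, against 47.6% of wider peaks. Up to 400 bp, median scores were higher in narrower classes, from 252.935 at 201 to 250 bp through 182.39, 152.68 and 138.27 in the next 3 steps of 50 bp. Beyond 400 bp the median fell further, to 75.66 at 701 to 800 bp, and then rose again. It was 104 at 801 to 1000 bp, 134.64 at 1001 to 1500 bp and 234.42 for the 277 peaks of 1501 to 3000 bp. High scores were thus not confined to narrow peaks. Among narrow peaks the lowest scores did not follow the order of the medians. The 6 peaks of 201 to 250 bp scored 228.89 or more, and the 68 peaks of 251 to 300 bp scored 138.27 or more, while the lowest was 50.14 among the 276 peaks of the next class, up to 350 bp, and 88.67 among the 508 of 351 to 400 bp. Just inside the limit, the 126 peaks of 391 to 400 bp had scores from 97.04 to 344.74 with a median of 138.27. Just outside it, the 144 peaks of 401 to 410 bp ranged from 68.48 to 362.00 with a median of 124.17. The 5 peaks of exactly 400 bp lay inside Agpat4 (138.27) and Dock1 (110.42) and nearest to Lratd1 (152.68), Larp4b (152.68) and Selenbp2 (138.27). The 12 peaks of 401 bp scored from 84.08, inside Cdh2, to 261.02, nearest to Noct.

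**Figure D1:**
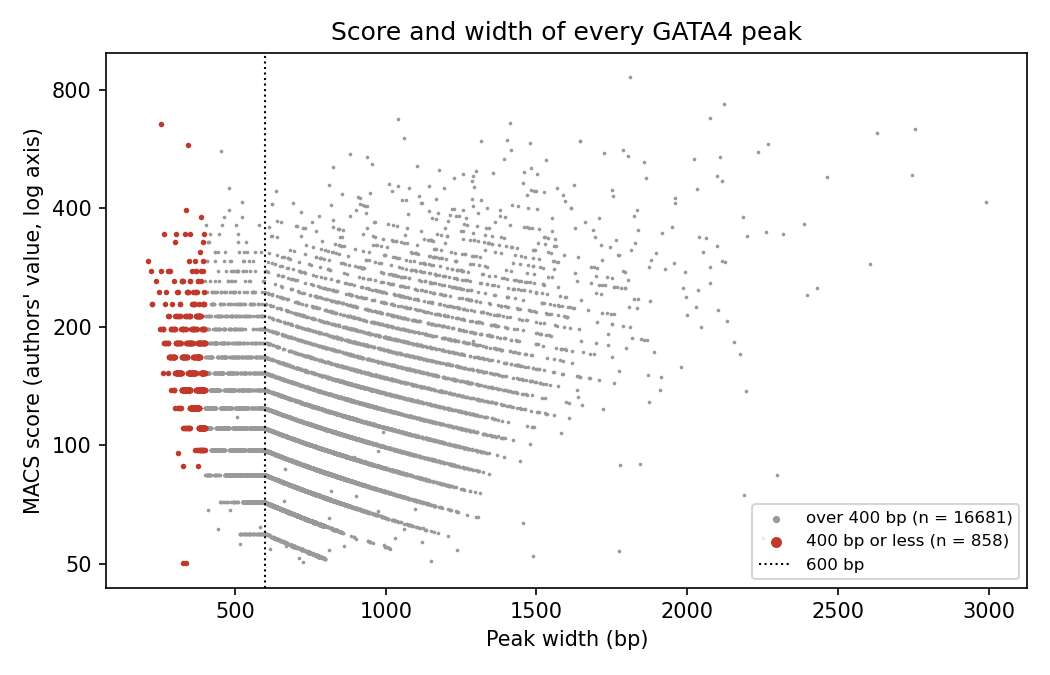
MACS score (log axis) against width in bp for every GATA4 peak, with the 858 peaks of 400 bp or less in red, the 16681 wider peaks in grey and a dotted line at 600 bp. Scores stand on level lines up to 600 bp and on falling lines beyond it, and narrow peaks occupy the levels from 97.04 upward apart from 5 peaks.

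The scores of narrow peaks took few values. They held 24 distinct scores, and 615 of the peaks (71.7%) stood on 5 of them. The 172 peaks with a score of 138.27 were the most numerous, followed by 130 with 152.68, 124 with 124.17, 100 with 110.42 and 89 with 167.40. These levels match the upper tail of a Poisson distribution with a mean of 0.508 at successive whole numbers, written as -10 times the log10 of the probability. With that mean held constant up to 600 bp and scaled in proportion to width beyond it, 17491 of all 17539 scores (99.7%) were matched within 0.02 by a whole number. The header does not say what the score is, and the form of the relation and the 600 bp were read off the scores themselves.

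The whole number behind each score gives the read support that the score implies. It can stand for a count of that number exceeded, or for a count higher by 1. For 853 narrow peaks it ran from 9 to 42 with a median of 13 and quartiles of 11 and 15. For the 16638 wider peaks with such a number it ran from 6 to 68, with a median of 10 and quartiles of 8 and 13. The lowest number among narrow peaks was 9, while wider peaks went down to 6. Reads of the IgG library were not analysed here.

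**Figure D2:**
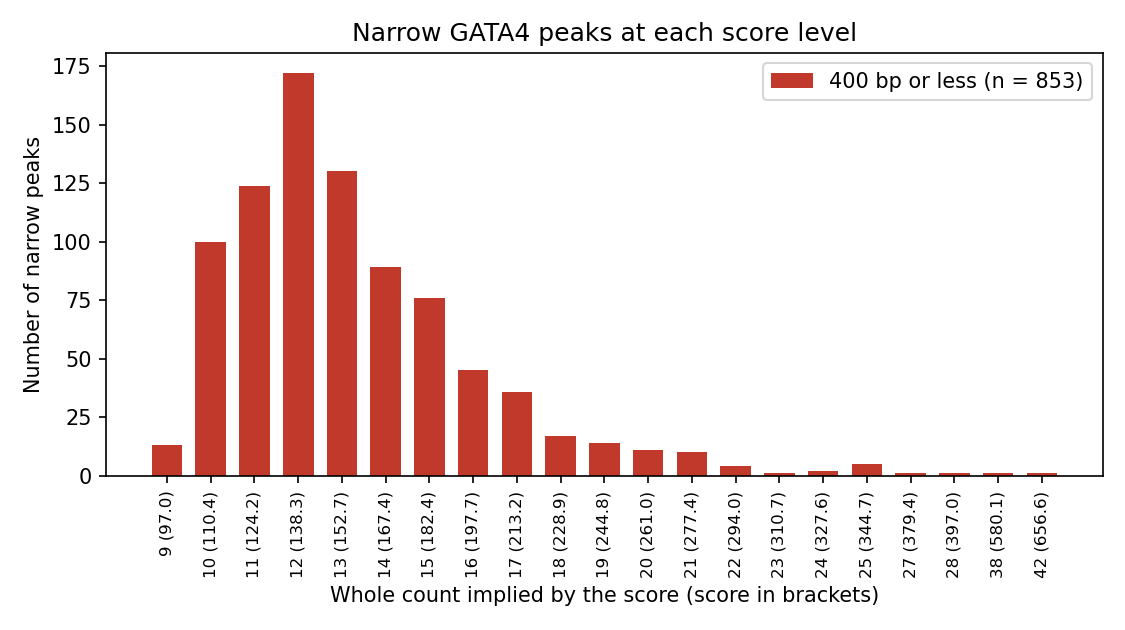
Number of narrow peaks (vertical axis) at each whole count implied by the score (horizontal axis, the score itself in brackets), for the 853 narrow peaks that have one. The tallest bar, 172 peaks, is at a count of 12, and single peaks stand at 38 and 42.

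The other 5 narrow peaks stood apart from these levels. The peaks inside Dst, which encodes the cytoskeletal linker dystonin, and inside Htr2a, a serotonin receptor gene, both scored 50.14, the lowest score of the whole list. The peaks inside Atxn10 (95.78) and Itgb3 (88.67) and one 7.41 kb from Angptl4 (88.67) were the others.

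The highest-scoring narrow peak lay at chromosome 14, 96351328 to 96351580, inside Klhl1, a neuronal kelch-like gene, and scored 656.59 in 253 bp. The next, 345 bp wide with a score of 580.09, was 15.3 kb from Pthlh, which encodes parathyroid hormone-related protein. They imply counts of 42 and 38, against 28 for the next. That peak lay inside Cd82 on chromosome 2 (93456151 to 93456486), a tetraspanin of the cell surface, with a score of 396.99. A peak with a score of 379.42 lay inside the gene model Gm36722, 30.2 kb from Tshz3, a zinc finger gene. The 5 peaks at 344.74 lay inside Lsm11, Rcor1 and Klhl6 and at 4.30 kb from Lrig3 and 51.4 kb from Pla2g4a. Rcor1 encodes the corepressor CoREST, Pla2g4a cytosolic phospholipase A2, and Lsm11 a part of the U7 particle that processes histone messages. The sources used here do not say how duplicate reads were treated, and whether copies of 1 fragment add to these counts was not tested.

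Scores of 293.96 to 327.64 were found at 7 further peaks. They lay inside Mfsd4b4, Phldb2, Tsga10, Sil1 and Tbc1d1, and at 15.8 kb from Tle3 and 20.7 kb from Igsf11. Tbc1d1 encodes a regulator of glucose transporter traffic in muscle, and Tle3 a Groucho-type corepressor. The Igsf11 peak, at chromosome 16, 39047783 to 39047994, was also the narrowest of the list at 212 bp. Below these, 10 peaks were tied at 277.40. Of these, 1 lay inside Jph1, which encodes the junctophilin that holds the membrane junctions of skeletal muscle together, and 1 inside Opa1, 36.4 kb from its end. The nearest protein coding genes of the other 8 were Bend3 (2.55 kb), Ifnar2 (14.4 kb), Mmd (16.3 kb), Fam110c (21.7 kb), Gclc (33.5 kb), Magi1 (108 kb), Fst (147 kb) and Galc (1141 kb). The narrowest peaks after that of Igsf11 were 222 bp (the Gclc peak), 225 bp near Plce1, 226 bp in Stau2 and 239 bp, 640 kb from Nxph1.

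Most narrow peaks lay away from gene ends. Counting both protein coding and lncRNA genes, 70 were centred within 1 kb of either end of one, or 8.16% (6.41% to 10.2%). The share was 11.1% (10.2% to 12.2%) for the 3818 peaks of 401 to 600 bp and 14.9% (14.3% to 15.5%) for the 12863 peaks over 600 bp. A further 482 narrow peaks lay inside genes, or 56.2% (52.8% to 59.5%), against 53.2% and 50.4%. The remaining 306, or 35.7%, were outside genes, against 35.6% and 34.7%. Over 10 kb from any such end lay 60.7% of narrow peaks (57.4% to 64.0%), against 57.5% and 54.7%. The table gives gene starts and ends without strand, so a gene end can be where transcription starts or stops.

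The position of narrow peaks was close to that of peaks of 401 to 600 bp once read support was matched. At the 11 implied counts from 9 to 19, which hold 816 narrow peaks, 8.33% of them (6.53% to 10.4%) were within 1 kb of a gene end. Weighted to the same counts, 2429 peaks of 401 to 600 bp had 7.26% there and 7605 peaks over 600 bp had 12.9%. The narrow peaks were thus above the first and below the second, and the first value lies within their interval. Inside genes the shares were 56.2%, 54.3% and 52.0%. With another peak within 5 kb they were 23.8%, 22.2% and 26.1%. This matching was chosen after seeing the data and none of these differences was tested.

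**Figure D3:**
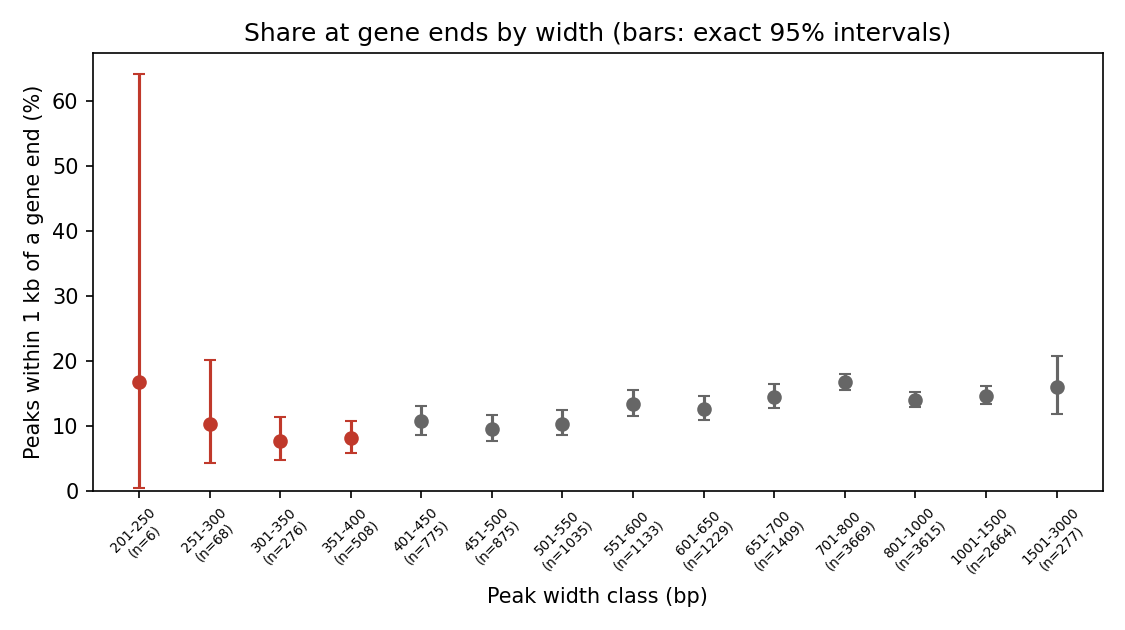
Percent of peaks with their centre at most 1 kb from where a protein coding or lncRNA gene begins or ends (vertical axis) by width class in bp (horizontal axis, number of peaks in brackets), narrow classes in red, with exact 95% intervals. The share is 8.07% at 351 to 400 bp and 16.7% at 701 to 800 bp, and the class of 201 to 250 bp holds only 6 peaks.

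At protein coding gene ends there were 46 narrow peaks (5.36%). The highest-scoring were near Spag9, at 0.774 kb, and Rbm34, at 0.0045 kb, both with a score of 261.02. Spag9 encodes a scaffold of JNK signalling. Stau2, which encodes an RNA transport protein, had a peak of 226 bp with a score of 228.89 at 0.637 kb inside the gene. Prpf18, a splicing factor gene, had one at 0.027 kb with a score of 213.15. Peaks at 197.65 were at Tcea1, encoding transcription elongation factor TFIIS, and at Ccdc88a, Prl2c3 and Ddx27. Scores of 182.39 were at Opa1, Gpr151, Smad1 and Phkb. Smad1 encodes a mediator of BMP signals and Phkb the beta subunit of phosphorylase kinase, which activates glycogen breakdown in muscle. Opa1 thus had a narrow peak at its start and another inside the gene, and these were the only peaks inside it.

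Few genes had a narrow peak nearby. Of 21887 protein coding genes, 303 had one centred within 10 kb of either end, a background of 1.38%. For 171 of the 303 (56.4%) no wider peak lay within 10 kb, so narrow peaks were the only ones there. No such count is given for genes near wider peaks. Lone peaks were usual in both kinds. Another peak was centred within 10 kb of 33.2% of narrow peaks and of 37.4% of wider peaks. The share of 56.4% is therefore no trait shown to be particular to narrow peaks. No gene had more than 2 narrow peaks within 10 kb of its ends. Mapk1ip1 and its neighbour Ppp2r2d on chromosome 7 share a pair, 318 bp with a score of 152.68 and 384 bp with a score of 138.27. Sec14l1 on chromosome 11 had a peak of 282 bp with a score of 213.15 and another of 306 bp with a score of 152.68, beside 2 wider peaks.

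Among 295 genes of 13 lists, 7 (2.37%) had a narrow peak within 10 kb of an end, and each list held at most 2. Of 26 myogenic regulators there were 2. Msgn1, the mesogenin gene of early muscle-forming mesoderm, had a peak of 382 bp with a score of 213.15 at 1.71 kb. Myf6, which encodes the muscle factor MRF4, had a peak of 379 bp with a score of 138.27 at chromosome 10, 107499692 to 107500070, 5.16 kb from the gene. It was also 12.95 kb from Myf5, and distance does not assign it to either gene. These were the only peaks of any width within 10 kb of Msgn1 and Myf6.

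Single members were found in 5 other lists. Of 34 sarcomere and contraction genes only Tpm1, an alpha tropomyosin gene, had one, with a score of 152.68 at 8.92 kb. Of 26 TGF-beta and BMP genes it was Smad1, and of 19 AP-1, TEAD and YAP genes Fosl1, which encodes the AP-1 protein Fra-1 (score 110.42 at 2.45 kb). Of 20 neuronal genes Map2 had one (213.15 at 6.21 kb), and of 20 immune and blood genes Cd79a (182.39 at 2.43 kb). The Cd79a peak, at chromosome 7, 24904148 to 24904426, covers the promoter window of Arhgef1, the gene next to it. Cd79a, a B cell marker, and Arhgef1 cannot be told apart by this peak. None of 25 matrix and fibroblast genes, 18 satellite cell surface genes, 20 cardiac factors and GATA cofactors, 30 cell cycle genes, 17 liver and gut genes, 15 endothelial genes or 28 housekeeping genes had one. A peak of some width lay there for 18 matrix, 9 satellite cell, 6 cardiac, 11 cell cycle, 1 endothelial and 12 housekeeping genes and for 0 liver and gut genes. In the lists with a narrow peak, one of some width lay there for 15 of 26 myogenic and 13 of 34 sarcomere genes. It did so for 11 of 19 AP-1, TEAD and YAP and 9 of 26 TGF-beta and BMP genes. For neuronal genes it was 4 of 20 and for immune and blood genes 2 of 20. Over all protein coding genes the share with a peak of some width there was 26.2%.

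More listed genes held a narrow peak in the gene body. Counting the gene itself and 10 kb on either side, a choice made after seeing the data, 16 of the 295 (5.42%) had one, against 620 of all protein coding genes, or 2.83%. This difference was not tested. The lists were chosen with earlier results of these data known, and gene length was not matched. Klhl1, which holds the highest-scoring narrow peak, is among the 16, and Lama2, Zfpm2 and Klhl1 are 636, 450 and 414 kb long. Lama2, which encodes the laminin alpha chain of the muscle fibre basement membrane, held 3 narrow peaks among 18 peaks. They were 361, 262 and 296 bp wide, with scores of 244.85, 197.65 and 167.40, all inside the gene. Ncam1, a satellite cell adhesion gene, held 2 of 10, and Vgll3, a TEAD cofactor gene, 2 of 4. Smad3 and Zfpm2, which encodes the GATA cofactor FOG2, held 1 of 13 and 1 of 10. Cdk6 held 1 of 5, with a score of 197.65 at 33.3 kb from an end. Bmpr1a held 1 of 2, and for Erg and Klhl1 the narrow peak was the only one.

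The distance to the nearest narrow peak ranged widely over 6 muscle and GATA genes. For Myod1 it was 2817 kb from the gene, although a peak of 1559 bp with a score of 227.35 lay 0.510 kb away. For Pax7, the satellite cell factor, it was 1782 kb, with a peak of 583 bp inside the gene. For Gata4 it was 4016 kb, against 106 kb for a peak of 731 bp with a score of 65.13. For Gata6 it was 1526 kb, although a peak of 656 bp with a score of 68.65 lay inside the gene. For Ankrd1, which encodes a titin-associated protein of striated muscle, it was 45.7 kb, against 0.221 kb for a peak of 2756 bp. For Myf5 it was the peak at 12.95 kb, against 8.41 kb for a peak of 862 bp with a score of 93.99.

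Inside protein coding genes there were 459 narrow peaks (53.5%, 50.1% to 56.9%), in 430 genes when the longest gene at each place was taken. The share was 51.3% for wider peaks and 51.4% for the whole list, both within that interval. It is therefore no trait shown to be particular to narrow peaks. The holding genes were long, with a median length of 117 kb and quartiles of 53.2 and 261 kb, against a median of 109 kb for wider peaks. Of these genes, 405 held 1 narrow peak, 21 held 2 and 4 held 3. The 4 were Pakap, Lama2, Cdh13 and Magi2, with lengths of 463, 636, 1185 and 1485 kb. Cdh13 encodes T-cadherin and Magi2 a scaffold protein of cell junctions. In Cdh13 the 3 narrow peaks, of 13 peaks in all, scored 152.68, 261.02 and 138.27. In Pakap, which encodes an A-kinase anchoring protein, they were 3 of 25, with scores of 152.68, 182.39 and 138.27. In Magi2 they were 3 of 8.

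Narrow peaks were about as isolated as peaks of 401 to 600 bp. Another peak was centred within 5 kb of 199 of them, or 23.2% (20.4% to 26.2%), against 22.9% at 401 to 600 bp and 26.3% over 600 bp. No other peak lay within 100 kb of 15.3% (12.9% to 17.9%), against 14.8% and 11.9%. The nearest neighbour of the 199 was over 600 bp wide in 136 cases, 401 to 600 bp in 48 and narrow in 15. The whole list holds 12863, 3818 and 858 peaks of these classes. The neighbour scored lower than the narrow peak in 142 cases, higher in 48 and the same in 9. The median score of the neighbours was 106.0, against 138.27 for the 199. Of all narrow peaks 97.9% scored at or above the list median of 99.34. A lower-scoring neighbour was therefore likely in advance, and this order is no result about the neighbours.

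Pairs of narrow peaks within 5 kb of each other occurred in 8 places. The closest pair lay inside Mttp, the gene of the lipoprotein assembly protein MTP, 0.736 kb apart, with scores of 197.65 and 110.42. The pairs in Sntg1, 0.790 kb apart, and Ankrd11, 0.905 kb apart, had scores of 152.68 and 152.68, and of 152.68 and 167.40. A pair 1.30 kb apart lay 74.7 kb from Hey2, a Notch target gene, and another lay inside Zeb1, a repressor of epithelial genes, 2.42 kb apart. The others were near Nfib and Selenbp2 and at Mapk1ip1.

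Narrow peaks followed the whole list over the chromosomes. They made up between 4.14% of the peaks of chromosome 3 and 7.30% of those of chromosome 14 over the autosomes and X. Chromosome 10, which has the most peaks, held 71 narrow peaks, 4.34% of its 1635 (3.41% to 5.45%). Chromosome X held 10, or 4.95% of its 202 (2.40% to 8.92%). On chromosome 14 the 30 narrow peaks were 7.30% of 411, with an interval of 4.98% to 10.3% that lies above the 4.89% of the whole list. It was the only one of these 20 intervals to do so, it was singled out after its value was seen, and no test was made.

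**Figure D4:**
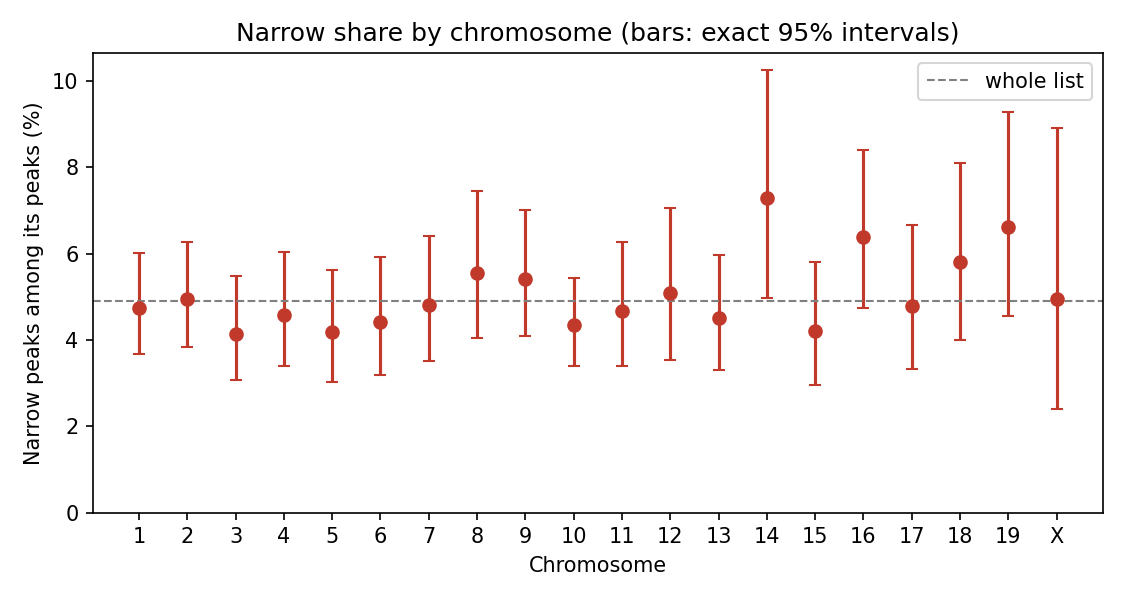
Narrow peaks as a percentage of all GATA4 peaks on each chromosome (vertical axis) for the 19 autosomes and X (horizontal axis), with exact 95% intervals and a dashed line at the 4.89% of the whole list. The interval of chromosome 14 lies above the line and the other intervals include it.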

How the data were processed

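ChIP-seq was made with a GATA4 antibody mixture and with control IgG, 1 library each. CASAVA 1.8, Bowtie and the build GRCm38 (mm10) are named, per the submitters' processing notes. Peaks were called with MACS in Galaxy, per the file header. The authors deposited 1 peak list that gives positions and a score for each peak. The sources used here do not give the caller's version, threshold, duplicate handling or control. Depth is unknown beyond the counts that the scores imply.

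With Python 3.11.15, pandas 2.3.3 and scipy 1.17.1, starts were made 1-based and peaks were assigned by their centre to genes of a RefSeq table of GRCm38.p6. The code for classification, distances and implied counts was checked on simulated peaks. The simulated scores were made with the same Poisson form and 600 bp rule, so this does not check the reading of the score. No test was made, since peaks of 1 library are not replicates. All 295 listed symbols matched. The members, lists and classes were chosen with earlier results of these data known. Named are the 20 highest-scoring peaks with ties, the 5 narrowest, those of exactly the limit's width, the 10 highest at protein coding gene ends with ties, genes with at least 2, listed genes, and 6 muscle and GATA genes. Genome sequence outside promoter windows was not used here.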

Additional observations from a re-analysis of the deposited data

How the results depend on the processing

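The alternatives were other width limits, only peaks at or above the median score, other windows, overlap in place of the centre, and only protein coding genes. Leaving out chromosome 10, the gene body window and matching by implied count were added after seeing the data. Of the alternative values, 21 stayed within the counting interval or within 1.5 times the count. The number of narrow peaks was 350 at 350 bp and 1633 at 450 bp, by construction. The share at gene ends was 6.41% with a window of 500 bp and 5.36% with protein coding genes only. With that gene set 50.7% lay inside genes and 43.9% outside. A neighbour lay within 2 kb of 12.9% and within 10 kb of 33.2%. Genes with a narrow peak numbered 50 within 1 kb, 1167 within 50 kb and 620 with the gene body. These follow from smaller or larger windows and gene sets. The share at gene ends was lower in narrow than in wider peaks in all 8 settings run, from 5.36% against 10.8% (protein coding genes only) to 8.33% against 10.3% (peaks at or above the median score). At or above the median score, the interval of the narrow share, 6.55% to 10.4%, includes the 10.3% of wider peaks. The settings reuse largely the same peaks. At matched counts the share at gene ends was not lower in narrow peaks than in peaks of 401 to 600 bp. GATA searches of whole peaks were not run, since no genome was used here. No paired analysis was possible because each antibody had 1 library. Implied counts of mostly 9 to 19 reads limit each peak's precision.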

Other observations

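MicroRNA genes were compared with narrow peaks as well. Of 1005 hairpins in the RefSeq miRNA table, 11 had a narrow peak centred within 10 kb. For protein coding genes it was 303 of 21887 (1.38%). Hairpins with a peak of any width were not counted. Mir214 and Mir199a-2, neighbours within Dnm3 on chromosome 1 that are known from mesoderm and skeletal tissue, share a peak at 162225829 to 162226139. It was 311 bp wide with a score of 213.15, at 2.56 and 8.12 kb from the 2 hairpins. The others included Mir205, an epithelial microRNA (score 124.17 at 3.76 kb), and Mir3069 (182.39 at 3.26 kb). The rest were Mir5122, Mir7021, Mir5619, Mir6935, Mir1892, Mir692-1 and Mir3970. These values are given without a test.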
